A study of Mus musculus with 8 samples.

Results

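The cells described here are the OT-I T cells with the most replication histone mRNA in each of 4 single-cell libraries. A barcode entered when exactly 1 guide was called in it and mitochondrial genes gave at most 10% of its gene UMIs (unique molecular identifiers, each standing for 1 captured mRNA molecule). The UMIs of Hist1h1b, Hist1h2ae, Hist1h2ap, Hist1h3c, Hist1h2ab and Hist1h1a were summed in each cell and divided by the cell's total gene UMIs, and the highest 10% of cells of each library were taken as histone-high cells. Of 56359 barcodes, 28447 had no guide call and 4107 had more than 1 guide. Of the 23805 with 1 guide, 468 were over the mitochondrial limit, and 23337 remained. The histone-high cells numbered 2334 of these: 1164 of 11639 in the IgG library, then 255 of 2552, 262 of 2616 and 653 of 6530 in the anti-PD-1 libraries, in the order of their replicate numbers. The other 21003 cells were the comparison. Because the rule takes a fixed share of each library, these numbers say nothing about treatment.

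OT-I cells are CD8+ T cells whose receptor recognises an ovalbumin peptide. They came from Cas9 knock-in mice and received, by lentivirus, a CRISPR library against metabolic genes together with a CD90.1 (Thy1.1) reporter. They were injected through the tail vein into Cas9-expressing recipient mice that carried ovalbumin-expressing KPC_OVA pancreatic tumours in the pancreas, and treatment with IgG or anti-PD-1, an antibody against an inhibitory T cell receptor, began on the day of transfer. CD90.1+ cells were sorted from the primary tumour 7 days after transfer. Tumours of several mice were pooled, so a library is not an animal, and IgG was represented by 1 library. Every cell, the controls included, carried Cas9 and a guide, with nontargeting guides as controls. The IgG library had a median depth of 6298 UMIs per cell, and the anti-PD-1 libraries had 16744.5, 16223.5 and 11968.5 in the order of their replicate numbers. Values by library are given below in this same order, IgG first. Pairs of libraries shared 3 to 20 barcodes. The libraries fell into 2 pairs by their mix of histone mRNAs, with IgG and anti-PD-1 replicate 3 on one side and anti-PD-1 replicates 1 and 2 on the other. No label names a batch.

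A cell that copies its genome must also make enough histone protein to package the new DNA. The replication-dependent histone genes, clustered on a few chromosomes, are transcribed during S phase. Most of their mRNAs end in a short stem-loop instead of a poly(A) tail, are bound there by the protein SLBP and are degraded when DNA synthesis ends. Replacement histones such as H2afz and H2afx are also made outside S phase. The method used primes on poly(A), so it counts those histone transcripts that carry, or that can be primed at, a run of adenines. Activated CD8+ T cells divide quickly, which makes S phase, G2 and mitosis large parts of their transcriptome.

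The histone 3′ stem-loop is shown for the 4 core histones of the rule because it is the element that distinguishes this mRNA class. The letters were read from GENCODE M21 transcripts on mm10, and capitals mark the 16-base stem-loop.
Hist1h2ab: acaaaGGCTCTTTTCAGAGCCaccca
Hist1h2ae: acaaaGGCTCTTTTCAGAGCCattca
Hist1h2ap: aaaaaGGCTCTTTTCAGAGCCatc
Hist1h3c: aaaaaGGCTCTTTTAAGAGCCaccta
The Hist1h2ab window lies at chr13:23751567-23751592 on the plus strand, and 11 bases follow its stem-loop, the part in capitals, to the annotated transcript end. On the minus strand lie the windows of Hist1h2ae at chr13:23570663-23570688, with 151 bases after the stem-loop, Hist1h2ap at chr13:21833026-21833049, with 3 bases after it, and Hist1h3c at chr13:23745042-23745067, with 74 bases after it. The same search found no match in the annotated transcripts of Hist1h1a and Hist1h1b. It matched 46 of 78 annotated transcripts of Hist genes (59.0%) and 57 of 141767 transcripts in all (0.0402%).

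The 6 genes lie in the histone clusters of chromosome 13, with Hist1h1b at chr13:21779883-21780625 and Hist1h2ap at chr13:21833026-21833507, both on the minus strand. The promoters of these 2 genes are printed because the balance between their mRNAs separated the library pairs, as given next. Each window runs from 250 bases before to 50 bases after the RefSeq start on GRCm38.p6, and capitals mark CCAAT and TATAA on either strand.
Hist1h1b, chr13:21780576-21780875, minus strand: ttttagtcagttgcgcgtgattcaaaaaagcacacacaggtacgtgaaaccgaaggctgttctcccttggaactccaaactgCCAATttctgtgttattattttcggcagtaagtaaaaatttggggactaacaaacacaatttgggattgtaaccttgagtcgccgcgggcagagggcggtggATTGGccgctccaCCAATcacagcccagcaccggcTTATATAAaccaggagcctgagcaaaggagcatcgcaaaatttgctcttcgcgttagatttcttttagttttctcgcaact
Hist1h2ap, chr13:21833426-21833725, minus strand: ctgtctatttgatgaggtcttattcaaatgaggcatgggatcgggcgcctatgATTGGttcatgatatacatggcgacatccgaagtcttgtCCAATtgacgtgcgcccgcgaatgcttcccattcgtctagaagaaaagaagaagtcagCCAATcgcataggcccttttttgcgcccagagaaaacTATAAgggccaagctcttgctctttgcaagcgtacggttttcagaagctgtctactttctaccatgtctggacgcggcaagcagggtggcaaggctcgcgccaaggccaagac
CCAAT or its complement ATTGG occurred in 6 of the 6 rule promoters and in 12289 of 32851 promoters in the table (37.4%). TATAA or TTATA occurred in 5 of the 6 and in 8171 of all (24.9%). Overlapping matches were counted separately, and in Hist1h1b the last 2 matches overlap. A match is a description of the letters and not a measured site.

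The rule genes themselves are given as a description, since they chose the cells, and levels are CPM, each gene's share of all gene UMIs of the summed cells scaled to 1000000. Hist1h1b, a linker histone, was at 4179 CPM in IgG histone-high cells, at 989 and 1128 CPM in anti-PD-1 replicates 1 and 2, and at 3791 CPM in replicate 3. In the other cells it was at 286, 110, 125 and 182 CPM in the same order. Hist1h2ap, a core histone of the H2A family, ran the opposite way, at 461 CPM in IgG and 610 CPM in replicate 3 but 2839 and 2605 CPM in replicates 1 and 2. Hist1h1b therefore gave 64.7% and 57.5% of the rule UMIs of histone-high cells in IgG and replicate 3 and 18.1% and 20.7% in replicates 1 and 2, while Hist1h2ap gave 7.14% and 9.25% against 51.8% and 47.9%. The same split was present in the other cells, where Hist1h2ap was at 47.6 and 40.5 CPM in the first pair and at 306 and 271 CPM in the second. Hist1h2ae, another H2A gene, was at 1031 to 1356 CPM in histone-high cells and at 86.7 to 116 CPM in the others. Hist1h3c (177 to 532 CPM), Hist1h2ab (126 to 215 CPM) and Hist1h1a (32.7 to 174 CPM) were lower contributors. Counts of single H2A genes are uncertain: 93.1% of the 50-base words of the Hist1h2ap transcript occur in another histone gene's transcript, against 43.2% for Hist1h2ae, 58.0% for Hist1h2ab, 47.0% for Hist1h3c and 0% for both linker histones.

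**Figure D1:**
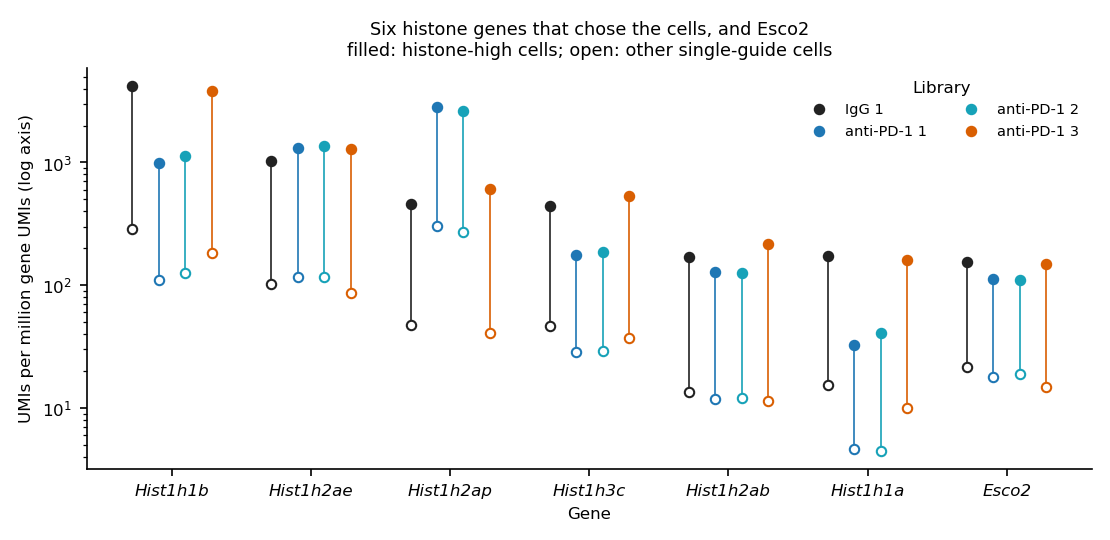
Level of each of the 6 rule histones and Esco2 in UMIs of the gene per 1000000 gene UMIs (log axis), with 1 filled point per library for histone-high cells joined to 1 open point for the other cells. Hist1h1b, Hist1h3c and Hist1h1a are highest in IgG and anti-PD-1 replicate 3, whereas Hist1h2ap is highest in anti-PD-1 replicates 1 and 2.

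The threshold fell within a continuous range. The lowest histone-high cell had 0.406%, 0.364%, 0.343% and 0.378% of its UMIs in the 6 histones, library by library, and the highest of the other cells had 0.406%, 0.363%, 0.342% and 0.378%. On average the share was 0.669%, 0.581%, 0.575% and 0.690% in histone-high cells and 0.0352%, 0.0386%, 0.0379% and 0.0250% in the others. Between 38.7% and 60.8% of the other cells of a library had no UMI of the 6 genes. The median histone-high cell had 57 rule UMIs in IgG and 111 to 119 in the anti-PD-1 libraries. When each cell was thinned to 2000 UMIs before ranking, 80% to 86.5% of the histone-high cells were chosen again, and when cells were ranked on the linker histones alone, 74.5% to 89.4% were.

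More UMIs were counted in histone-high cells than in the other cells. This is a description, since a cell's total UMIs are the denominator of the histone share. The median was 8847.5 UMIs against 6054 in IgG, 20323 against 16313 in anti-PD-1 replicate 1, 20856 against 15641 in replicate 2 and 18256 against 11471 in replicate 3, higher in 4 of 4 libraries. The mean difference was 4701 ± 1705 UMIs (SD, n = 4), and 5185 ± 1838 UMIs when the cells were chosen after thinning. Genes detected per cell were 703 ± 202 more (SD, n = 4), and after thinning every cell to 2000 UMIs the medians were 993 to 1008 genes in histone-high cells and 943 to 960 in the others. The mitochondrial share was higher in 3 of 4 libraries, by 0.105 percentage points ± 0.121 (SD, n = 4; two-sided exact permutation of signs, p = 0.25, which with 4 pairs cannot fall below 0.05). Median depth did not peak in the cells with the highest histone share. In IgG and anti-PD-1 replicates 1 and 2 it was highest among cells ranked 80 to 90%, just under the threshold (10041.5, 28604 and 26932 UMIs), and in replicate 3 among those ranked 90 to 95% (19957 UMIs).

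The S-phase label held only in part, so the name histone-high is kept. Esco2 (chr14:65819038-65833994, minus strand), an acetyltransferase that establishes cohesion between sister chromatids during S phase and the one given marker outside the rule, was at 153, 113, 111 and 149 CPM in histone-high cells, library by library, against 21.5, 17.9, 18.8 and 14.8 CPM in the others. However, 1039 of the 2334 histone-high cells (44.5%) were also in the top 10% of their library for a summed list of mitosis and G2/M genes, at 43.6%, 42.4%, 40.1% and 48.7% by library. A smaller number, 640 cells (27.4%), were in the top 10% for replication licensing and G1/S genes. Both lists were high in 73 cells and neither in 728 (31.2%).

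Genes were then compared between histone-high and other cells on UMI counts summed per library, with the library as a block and the 6 rule histones left out. In edgeR's quasi-likelihood test with Benjamini-Hochberg adjustment over 12525 genes, 4986 passed an adjusted p of 0.05 (39.8%), with 2483 higher (19.8%) and 2503 lower (20%), and the median log2 difference of all genes was -0.03. Called genes were therefore common, and counts of listed genes below are to be read against these shares. The histone share and the tested genes were read from the same cells, and the p-values cover only the spread of each difference between libraries. In 1678 genes (13.4%) the levels of all 4 histone-high sums lay above all 4 others, and in 1346 (10.7%) below.

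Among named genes outside the histones Mxd3, a MAX-binding transcriptional repressor, had the largest rise. It was at 81.0, 69.96, 74.3 and 78.5 CPM in histone-high cells and at 10.4, 9.98, 10.9 and 6.85 CPM in the others. Its log2 difference was 3.05 ± 0.10 (SE; edgeR adjusted p = 3.7e-10), and the groups did not overlap. Esco2 rose by 2.88 ± 0.10 on the log2 scale (edgeR adjusted p = 3.8e-10). Fbxo5, which encodes the inhibitor EMI1 that holds back the anaphase-promoting complex through S and G2, was at 180, 139, 127 and 193 CPM against 34.4, 24.0, 23.6 and 26.1 CPM, a log2 difference of 2.58 ± 0.08. Top2a, the topoisomerase that untangles sister DNA, was at 921, 896, 860 and 973 CPM against 188, 212, 204 and 151 CPM, a log2 difference of 2.30 ± 0.08. The rule for the 12 largest rises also named Nusap1, Kif11, Prc1, Spc25, Sgo2a, Kif4 and Ckap2l, with log2 differences from 2.31 to 2.58. Most of these act on the spindle, kinetochore or centromere, and in none of those named did the groups overlap.

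**Figure D2:**
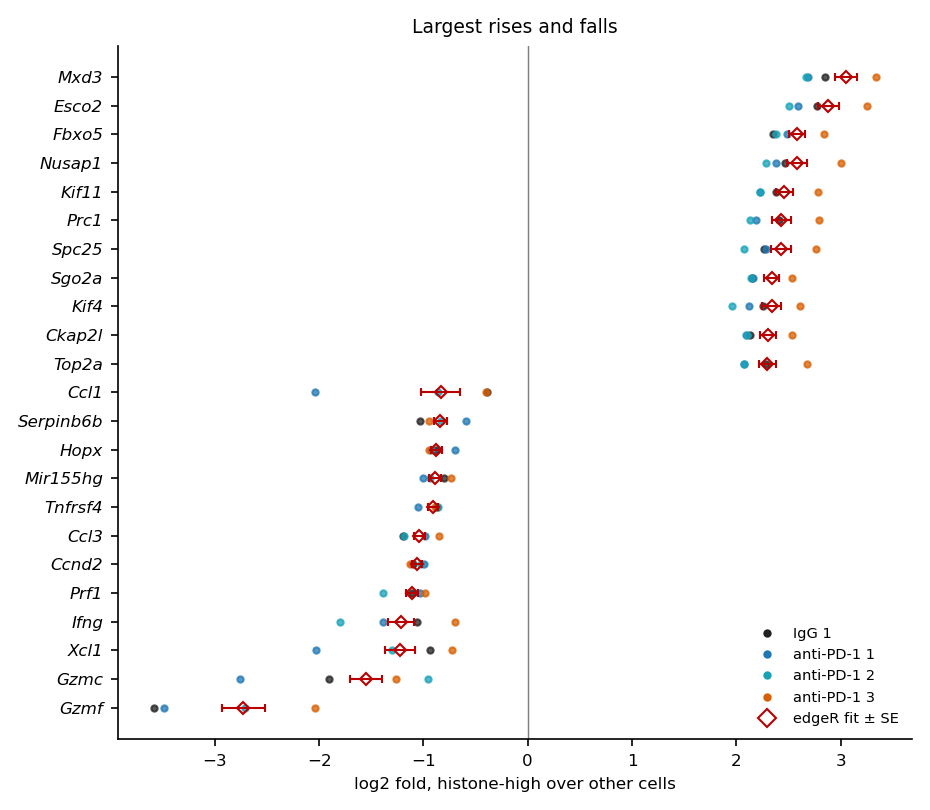
Log2 fold of histone-high over other cells for genes with the largest rises and falls, with 1 point per library and the edgeR estimate as a diamond with its SE. All 4 libraries lie on the same side of 0 for each gene, and they spread most for Gzmf, Gzmc and Ccl1.

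Among genes of chromatin packaging, 54 of 56 tested replication histones outside the rule were higher and none was lower, with a median log2 difference of 2.69. These genes share sequence with those of the rule, so part of their counts may come from the same molecules. Hist1h3b, an H3 gene, was at 22.1, 43.3, 41.5 and 29.1 CPM against 2.25, 4.38, 4.49 and 2.30 CPM, and Hist1h2af, an H2A gene, was at 117, 19.8, 22.9 and 155 CPM against 10.4, 2.65, 3.12 and 9.38 CPM. Hist1h2af followed the library pairs of Hist1h1b and Hist1h3b those of Hist1h2ap, and both were higher in histone-high cells of every library. Of 9 replacement histones, 8 were higher (median 0.75), led by H2afx, the variant phosphorylated at DNA breaks, at 404, 476, 483 and 439 CPM against 108, 109, 132 and 85.6 CPM. H2afz, an abundant H2A variant, rose by 1.13 ± 0.04. Of 20 histone mRNA processing factors and histone chaperones, 19 were higher (median 0.68). Asf1b, which hands H3 and H4 to the assembly machinery, rose by 2.02 ± 0.07, and Chaf1a, a subunit of the assembly factor CAF-1, by 1.07.

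Genes of DNA synthesis were higher with few exceptions. Of 33 licensing and G1/S genes, 31 were higher and 2, Ung and Cdca7, were lower (median 0.78), with the largest rises in E2f2, Cdc45 and Mcm10 at 1.57, 1.53 and 1.51. Of 37 fork genes 36 were higher (median 0.90). Clspn, the checkpoint mediator at the fork, was at 167, 167, 163 and 156 CPM against 46.6, 52.7, 47.9 and 39.7 CPM. Of 29 genes of homologous recombination and the Fanconi anaemia pathway, which repair and restart forks, all 29 were higher (median 1.30), with Fancd2 at 2.08 ± 0.11 and Brip1 at 2.01 ± 0.08. Of 14 cohesion genes 11 were higher, and Cdca5 (sororin) rose most after Esco2, by 2.35 ± 0.10. The mitosis and G2/M list had 41 of 43 members higher and the largest median of the cell cycle lists outside the histones, 1.97.

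Of 35 tested nucleotide synthesis genes 18 were higher, 1, the deoxycytidylate deaminase gene Dctd, was lower and 16 did not pass (median 0.18). Rrm2, a subunit of ribonucleotide reductase, was at 288, 264, 251 and 312 CPM against 63.4, 69.1, 69.6 and 56.6 CPM (log2 2.13 ± 0.08), and Tyms, Rrm1, Tk1 and Dck rose by 1.67, 1.55, 1.55 and 1.32. The 16 that did not pass included Cad and Dhodh of pyrimidine synthesis, Ppat and Atic of purine synthesis, Shmt2 of one-carbon metabolism, and Rrm2b and Samhd1, which act on deoxynucleotides. Of 19 DNA methylation and chromatin maintenance genes 18 were higher (median 0.999). Among them Hmgb2, a chromatin protein of dividing cells, was at 3176, 3883, 3647 and 3501 CPM against 1217, 1375, 1438 and 1104 CPM, and Ezh2, the H3K27 methyltransferase, rose by 1.27 ± 0.06. In a list of CDK inhibitors and quiescence genes 9 of 20 were higher and 3 lower, and the largest rise was Cdkn2c, an INK4 inhibitor, at 62.6, 67.9, 58.1 and 60.7 CPM against 16.8, 19.8, 19.8 and 15.7 CPM.

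Effector genes were lower in histone-high cells. Of 20 effector genes 14 were lower and 1 higher (median log2 difference -0.65). Ifng was at 242, 180, 197 and 270 CPM against 505, 474, 690 and 440 CPM, a log2 difference of -1.21 ± 0.12 (edgeR adjusted p = 6.2e-06). Prf1, encoding the pore-forming protein perforin, was at 235, 278, 220 and 421 CPM against 507, 569, 577 and 834 CPM, a log2 difference of -1.11 ± 0.06. Neither gene overlapped between the groups. The granzyme genes Gzmf and Gzmc had log2 differences of -2.73 ± 0.21 and -1.55 ± 0.16 and varied more between libraries. Gzmf was at 7.89, 2.57, 10.1 and 45.9 CPM against 106, 39.1, 71.5 and 192 CPM, lower in 4 of 4 libraries although the groups overlapped. The chemokine gene Xcl1 fell by 1.23 ± 0.15 and Ccl3 by 1.04. Ccnd2, the D-type cyclin of G1, was at 74.5, 76.4, 64.0 and 80.9 CPM against 160, 154, 131 and 179 CPM. Tnfrsf4, Mir155hg, Hopx, Serpinb6b and Ccl1 completed the 12 largest falls, at -0.91, -0.88, -0.87, -0.84 and -0.83.

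Of 17 exhaustion genes 11 were lower and none higher (median -0.29), with the inhibitory receptor genes Cd160 at -0.66 ± 0.04 and Lag3 at -0.51 ± 0.04. Of 18 precursor and memory genes 9 were lower and 3 higher. S1pr1, a receptor for exit from tissue, and Klf2, its activator, were among the higher ones, at 0.83 ± 0.15 and 0.78 ± 0.09, and Klf2 reached 108 and 80.04 CPM in anti-PD-1 replicates 1 and 2 but 23.2 and 33.4 CPM in IgG and replicate 3. Of 13 tested interferon response genes 6 were lower and none higher. Elovl1, the fatty acid elongase of the study's interest, was at 47.0, 37.1, 35.6 and 45.5 CPM against 47.4, 43.1, 43.4 and 48.8 CPM, and its log2 difference of -0.12 ± 0.06 did not pass (edgeR adjusted p = 0.11).

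The histone-high cells carried T cell genes throughout. Cd3d was at 1242 to 1307 CPM and Cd8a at 514 to 719 CPM, although 10 of the 14 identity genes were lower than in the other cells (median -0.16; Cd8a -0.35 ± 0.03). A list of 40 markers of other cell types summed to 235 to 295 CPM in histone-high cells and to 249 to 464 CPM in the others. Among these markers Ms4a1, S100a8, Cd209a, Flt3, Col1a2, Dcn, Prss1, Cpa1, Try4, Hba-a2 and Hbb-bt had no UMI in histone-high cells. Most of the sum came from Cst3, at 146 to 209 CPM, and Ighm, at 37.6 to 56.4 CPM, and Cd68, Epcam, Pecam1, Cela1, Igkc and Cd79b had 100 to 224 UMIs each in all histone-high cells. Of the 19 markers tested, 11 were lower in histone-high cells, and single libraries set several of them: Igkc reached 147 CPM in the other cells of anti-PD-1 replicate 3, against 2.79 CPM in the lowest library, and without that replicate its log2 difference was 0.14. Cells with at least 10 UMIs of the list, a fixed number whatever the depth of the cell, made up 1.72%, 11.8%, 13.0% and 11.2% of histone-high cells and 1.203%, 9.58%, 8.16% and 5.46% of the others, a higher share in 4 of 4 libraries although the summed level was not higher. In all they were 157 of 2334 and 859 of 21003 cells, and 5020 genes were called without them. No doublet caller was run, and the part of doublets in the higher UMI counts was not tested.

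Cells were also ordered by their histone share within each library, from 0 to 100%. The summed fork list was at 1601 ± 105 CPM in the lowest 60% of cells, 3842 ± 94.5 CPM at 80 to 90%, and 4735 ± 83.0 CPM in the top 5% (SD, n = 4 libraries). Licensing genes levelled off earlier, at 1348 ± 145, 2772 ± 114 and 3058 ± 93.4 CPM in the same bins. Mitosis genes went on rising, at 1489 ± 101, 5820 ± 312 and 8175 ± 739 CPM. Nucleotide synthesis genes were at 4866 ± 257 CPM at 80 to 90%, 4835 ± 163 CPM at 90 to 95% and 4659 ± 82.3 CPM in the top 5%. The first of these bins was the highest in 3 libraries, but in anti-PD-1 replicate 3 it was the lowest of them (4509, 4631 and 4623 CPM). In that bin of replicate 3 the markers of other cell types summed to 1254 CPM, against 219 to 297 CPM in the same bin of the other libraries and 262 to 324 CPM in the other bins of replicate 3, and their part in the level was not tested. Esco2 was at 1.65 ± 0.73 CPM in the lowest 60%, 81.1 ± 10.9 CPM at 80 to 90% and 155 ± 24.3 CPM in the top 5%, and the effector list passed from 21678 ± 3530 to 11095 ± 1288 CPM from the lowest to the highest bin.

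**Figure D3:**
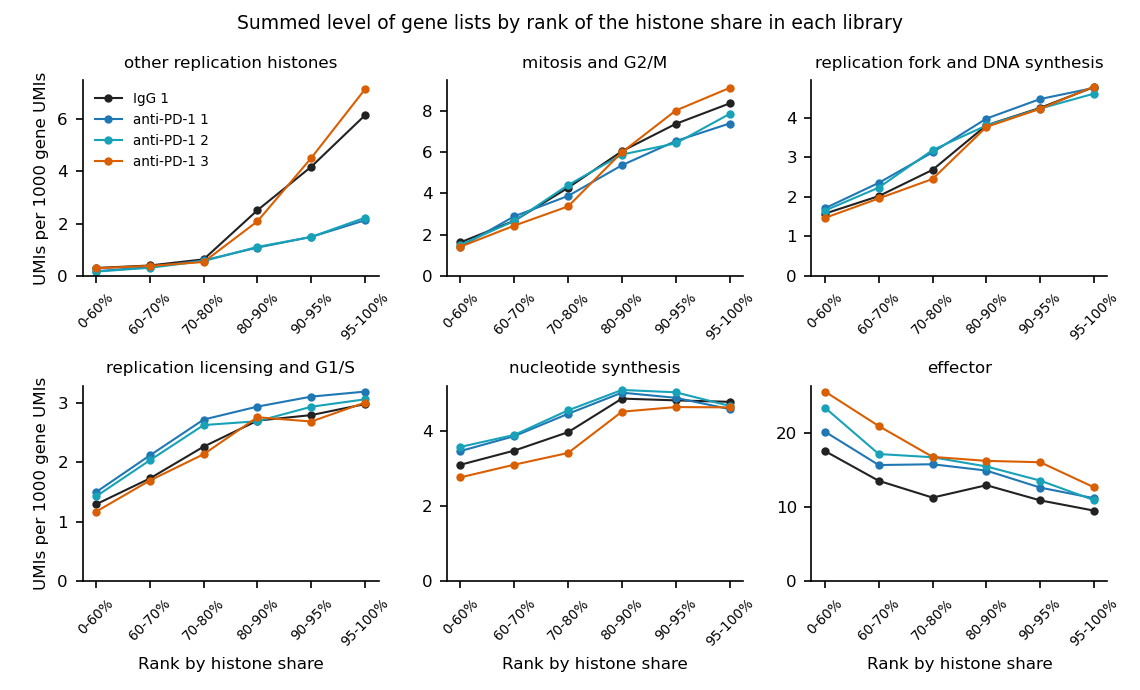
Summed level of 6 gene lists, in UMIs per 1000 gene UMIs, across bins of cells ranked by histone share within each library, 1 line per library. Fork and mitosis genes rise into the top 5%, licensing genes flatten above 80%, and effector genes fall.

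To place the histone-high cells among cycling cells, those outside the G2/M-high 10% were compared with G2/M-high cells that were not histone-high, with the mitosis list left out of the test. Cells high in both were thus on neither side, which takes the histone-high cells with the most mitosis mRNA out of the comparison. Of 10202 genes, 2744 passed (26.9%), 1495 higher (14.7%) and 1249 lower (12.2%) in edgeR. Licensing genes were higher in 32 of 33 cases (median 1.28), fork genes in 35 of 37 (1.04), histone processing and chaperone genes in 17 of 20 (0.79) and nucleotide synthesis genes in 29 of 35 (0.55). Cdc6, which loads the MCM helicase, was at 49.8, 40.2, 40.6 and 50.9 CPM against 4.95, 7.74, 7.50 and 7.95 CPM, and E2f1 rose by 2.59 ± 0.13. Ung, lower than in all other cells together, was 2.85 ± 0.19 higher here. Slbp, the binder of the stem-loop printed above, was at 290, 344, 307 and 296 CPM against 107, 149, 134 and 130 CPM, a log2 difference of 1.27 ± 0.06. Cyclin E1 (Ccne1), Dck and Pcna rose by 1.85, 1.61 and 1.45. Among genes that met the naming rule given below, Cdkn3, a phosphatase gene of late cycle, fell most, by 2.19 ± 0.08. Cdc25b and Aspm followed among known mitotic genes, and Cx3cr1, a chemokine receptor gene, fell by 1.32 ± 0.07. With all 2334 histone-high cells kept, an alternative added after seeing the data, 1034 genes were higher (9.97%) and 853 lower (8.22%). Licensing genes were then higher in 31 of 33 cases (median 1.0) and fork genes in 36 of 37 (0.84), nucleotide genes were higher in 20 of 35, and Cdkn3 and Cx3cr1 had log2 differences of -1.06 and -0.81. H2afx had -0.75 ± 0.07 in the first comparison and -0.12 with all histone-high cells kept, where it did not pass (edgeR adjusted p = 0.20). Of 19 tested CDK inhibitor and quiescence genes 7 were lower in the first comparison, Cdkn2d among them, and 2 higher. With all histone-high cells kept 1 was lower and 4 were higher. Of 19 chromatin maintenance genes 4 were lower in the first comparison, Hmgb2 among them, and 9 higher. With all histone-high cells kept 0 were lower and 10 higher.

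Of 20 effector genes, 2 were lower than in G2/M-high cells, 4 were higher and 14 did not pass (median 0.16). That median turned to -0.14 with the top 5% of cells and to -0.12 without anti-PD-1 replicate 3, and with all histone-high cells kept it was -0.05, with 1 gene higher and 3 lower. Perforin was again lower, by 0.58 ± 0.09, and Ifng was 0.39 ± 0.09 higher, with overlapping groups and 3 of 4 libraries in that direction, a call lost with the top 5%, in DESeq2, without anti-PD-1 replicate 3 and with all histone-high cells kept (log2 0.01). T cell identity genes were lower in 11 of 14 cases, and in 5 of 14 with all histone-high cells kept. Against licensing-high cells, compared below, 10 of the 14 were instead higher and 2 lower (median 0.15). With all histone-high cells kept 8 were higher and 2 lower there. Elovl1 was at 43.5, 29.2, 32.4 and 38.5 CPM against 61.2, 43.9, 49.6 and 56.3 CPM, a log2 difference of -0.54 ± 0.08 (edgeR adjusted p = 5.3e-05), without overlap, and -0.36 with all histone-high cells kept.

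Histone-high cells outside the licensing-high 10% were compared in the same way with licensing-high cells that were not histone-high. With that list left out, 3766 of 10387 genes passed (36.3%), 1977 higher (19.0%) and 1789 lower (17.2%). All 43 mitosis genes were higher (median 1.98). Ube2c, the ubiquitin-conjugating enzyme of the anaphase-promoting complex, was at 676, 573, 584 and 829 CPM against 54.8, 39.9, 55.2 and 40.2 CPM, and Cenpf and Plk1 rose by 3.64 ± 0.09 and 2.89 ± 0.08. The INK4 gene Cdkn2d was at 151, 124, 114 and 176 CPM against 30.8, 22.9, 28.4 and 36.1 CPM, and 14 of 19 CDK inhibitor and quiescence genes were higher. Fork genes were lower in 26 of 35 cases (median -0.34), with Top2a and Ticrr higher. Nucleotide genes were lower in 23 of 35 (median -0.30), with Rrm1, Rrm2, Tyms and Cmpk1 higher, and recombination genes in 13 of 29, with Eme1, Fancd2, Brip1 and Atr higher. With all 2334 histone-high cells kept, 17.2% of genes were higher and 15.3% lower, fork genes were lower in 22 of 35 cases (median -0.19), nucleotide genes in 21 of 35 (-0.22) and recombination genes in 6 of 29, with another 6 higher. The summed fork level was then 4491, 4596, 4398 and 4488 CPM against 4481, 4801, 4515 and 4535 CPM, with overlapping groups. With histone-high cells that were also licensing-high left out again, the clamp loader gene Rfc3 was 0.99 ± 0.07 lower. Hells, a chromatin remodeller, was 1.21 ± 0.05 lower. Esco2 was 1.35 ± 0.07 higher than in licensing-high cells and 1.33 ± 0.09 higher than in G2/M-high cells. It was a given marker of these cells, chosen with earlier results of these data known, so this is a description. The effector median was 0.01 (-0.20 with the top 5%), and 4 of 20 effector genes were lower (Prf1, Gzmb, Ccl3 and Ifng) and 2 higher (Il2 and Gzmk), while 17.2% of all genes were lower. Il2 lost its call without anti-PD-1 replicate 2 (log2 0.14, edgeR adjusted p = 0.76) and with all histone-high cells kept (0.67, adjusted p = 0.097), and had -0.043 with the top 5%. Of 17 exhaustion genes 6 were higher and 3 lower (median 0.05), or 3 and 5 with all histone-high cells kept. Against G2/M-high cells 2 of the 17 were higher and 6 lower (median -0.13). Of 11 tested interferon response genes 3 were higher and 1 lower than in licensing-high cells (median 0.39). Against G2/M-high cells 0 of 11 were higher and 4 lower (median -0.32).

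Levels in 5 classes of cells put these comparisons side by side as descriptions, since the lists chose some of the classes. Here the histone-high classes keep the cells that were also licensing-high, unlike in the test just given. Mitosis genes summed to 11256 ± 1137 CPM in histone-high cells that were also G2/M-high, to 4779 ± 320 CPM in the remaining histone-high cells, to 2395 ± 118 CPM in cells high for licensing only and to 1766 ± 129 CPM in cells of none of these classes (SD, n = 4). The fork list was highest in histone-high cells that were not G2/M-high, at 4816 ± 146 CPM, with 4070 ± 46.4 CPM in those that were and 4569 ± 139 CPM in licensing-high cells. Esco2 was at 137 ± 25.0 and 128 ± 21.1 CPM in the 2 histone-high classes, at 51.6 ± 2.87 and 49.1 ± 6.67 CPM in the G2/M-high and licensing-high classes, and at 10.8 ± 2.32 CPM in the rest. Effector genes were at 20611 ± 3343 CPM in the rest and between 10390 and 13770 CPM in the 4 cycling classes. Exhaustion genes were at 2844 ± 282 CPM in the rest and between 2259 and 2478 CPM in those classes. For interferon response genes the values were 451 ± 96.6 CPM and between 365 and 406 CPM.

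**Figure D4:**
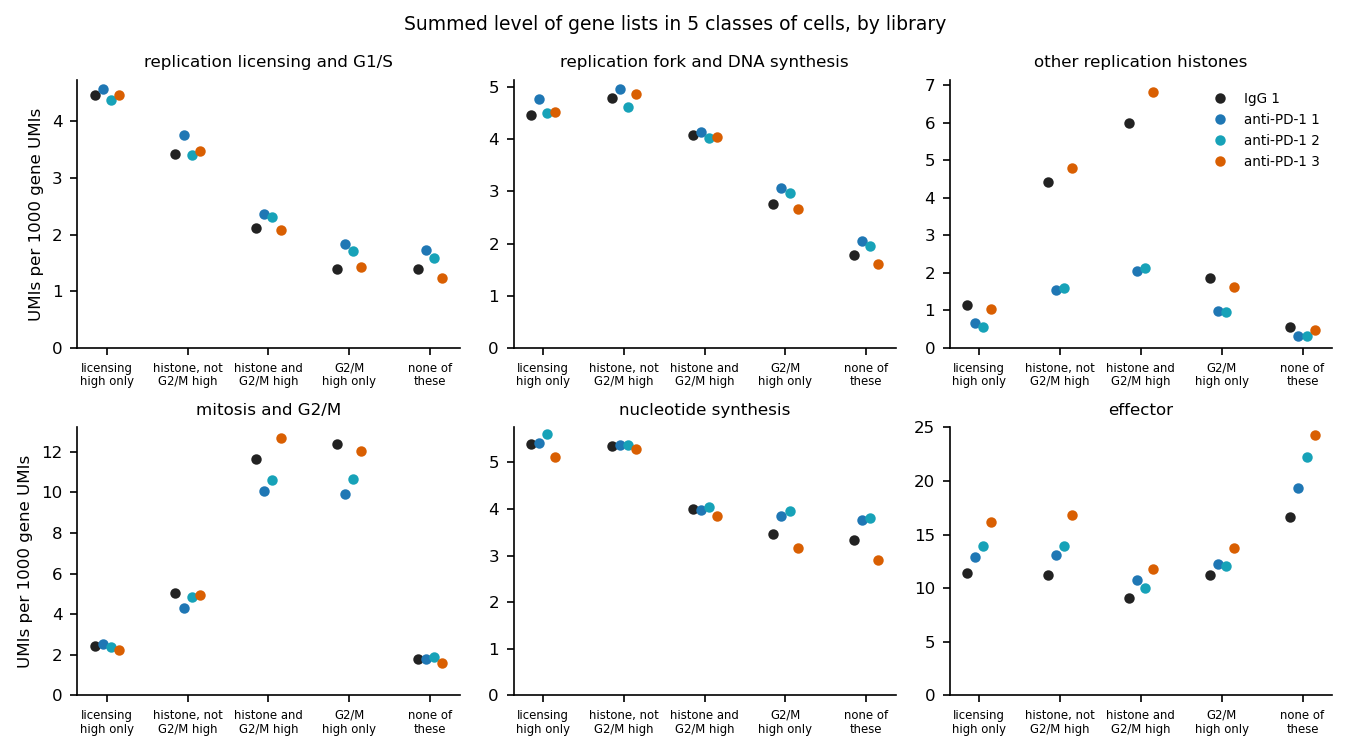
Summed level of 6 gene lists, in UMIs per 1000 gene UMIs, in 5 classes of cells, 1 point per library. Fork genes are highest in histone-high cells outside the G2/M-high class, and effector genes are highest in cells of none of the classes.

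The study compared anti-PD-1 with IgG. In histone-high cells, edgeR called 0 of 10862 genes between the 3 anti-PD-1 libraries and the 1 IgG library (0.00%), with 286 at an unadjusted p under 0.05, and DESeq2 called 2, the chemokine genes Ccl3 and Ccl5. Ccl3 was at 386 CPM in IgG and at 868, 920 and 736 CPM in the anti-PD-1 libraries, and Ccl5 at 1980 CPM against 3151, 2982 and 3118 CPM. Both were higher in 3 of 3 anti-PD-1 libraries, with log2 differences of 1.14 ± 0.16 and 0.65 ± 0.10 (edgeR adjusted p = 0.997 for each). Without anti-PD-1 replicate 3, the library whose histone mix matched that of IgG, 1208 genes were called, so the count rested on that library. A term for the library pairs, added after seeing the data, gave 122 genes (67 higher, 55 lower). Within the pair of IgG and replicate 3 there is 1 library against 1 and no test. The median log2 difference of replication histones outside the rule against IgG was -0.79 and -0.76 for replicates 1 and 2 but 0.27 for replicate 3. Fork and licensing genes had medians of 0.01 and 0.02 over the anti-PD-1 libraries. Treatment and library pair cannot be fully told apart with 1 IgG library.

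Whether the difference between histone-high and other cells depended on treatment was tested as an interaction, and 0 of 13165 genes passed in edgeR (0.00%), with 239 at an unadjusted p under 0.05 and 0 in DESeq2. Without anti-PD-1 replicate 3 there were 87. With 1 histone cut of 0.4% for all libraries and each cell thinned to 2000 UMIs, 11.1% of IgG cells lay above it (exact 95% binomial interval 10.6% to 11.7%), against 9.51%, 9.12% and 9.63% of the cells of the anti-PD-1 libraries. The difference of 1.71 percentage points from the anti-PD-1 mean of 9.42% ± 0.27 (SD, n = 3) had an exact permutation p of 0.25, the smallest that 3 against 1 libraries allow. Without thinning, and with a cut for the top 5% of all cells, the p was 0.5. With the latter cut replicate 3, at 5.69%, lay nearer to IgG, at 5.97%, than to replicates 1 and 2, at 4.52% and 4.10%.

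Guides were not used by the rule, so the share of histone-high cells could be compared between knockouts. The nontargeting guides were counted together as 1 target. Of 84 targets seen with 276 guides, 80 had enough cells to be tested on cell numbers per library, and 1 passed in edgeR (1.25%), with 3 at an unadjusted p under 0.05. That target was Dpm2, a subunit of the dolichol phosphate mannose synthase that supplies mannose for glycosylation. Its guides are printed because they carry the one difference called, and all 3 lie in exon 2 of Dpm2 (chr2:32570858-32573579, plus strand, mm10).
Dpm2 gRNA1: tgatcaagctaacggcgaca
Dpm2 gRNA2: cttcacctactacaccactt
Dpm2 gRNA3: accgggacagaccaagcagt
They match chr2:32571241-32571260 on the opposite strand, and chr2:32571262-32571281 and chr2:32571209-32571228 on the coding strand, and no other annotated gene's transcripts.

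Of cells with a Dpm2 guide, 17 of 80 were histone-high in IgG, then 1 of 8, 4 of 13 and 8 of 47 in the anti-PD-1 libraries, and 30 of 148 in all (20.3%, exact 95% binomial interval 14.1% to 27.7%). By guide, 7 of 24, 7 of 30 and 16 of 94 cells were histone-high. The log2 difference was 1.19 ± 0.28 (SE; edgeR adjusted p = 0.041). The call was lost without IgG (adjusted p = 0.50), without anti-PD-1 replicate 2 (0.16), on thinned cells (0.29), with the top 5% as members (0.62) and in DESeq2 (0.56). Nontargeting guides gave 281 of 2730 cells (10.3%, 9.18% to 11.5%), close to the 10% that the rule sets. Mgst1, a microsomal glutathione transferase, had the lowest share among targets named, 16 of 295 (5.42%, 3.13% to 8.66%), and a log2 difference of -0.95 ± 0.31 that did not pass (edgeR adjusted p = 0.25). Elovl1 guides gave 23 of 295 cells (7.797%, 5.01% to 11.5%; log2 difference -0.39 ± 0.28, edgeR adjusted p = 0.70). Guides against Cops8 gave 21 of 145 (14.5%), Tgds 58 of 472 (12.3%), Duox2 21 of 337 (6.23%), Gpx3 12 of 200 (6%) and Pik3cd 43 of 504 (8.53%), none of which passed. Dhodh, with 4 of 57 cells, was not tested.

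**Figure D5:**
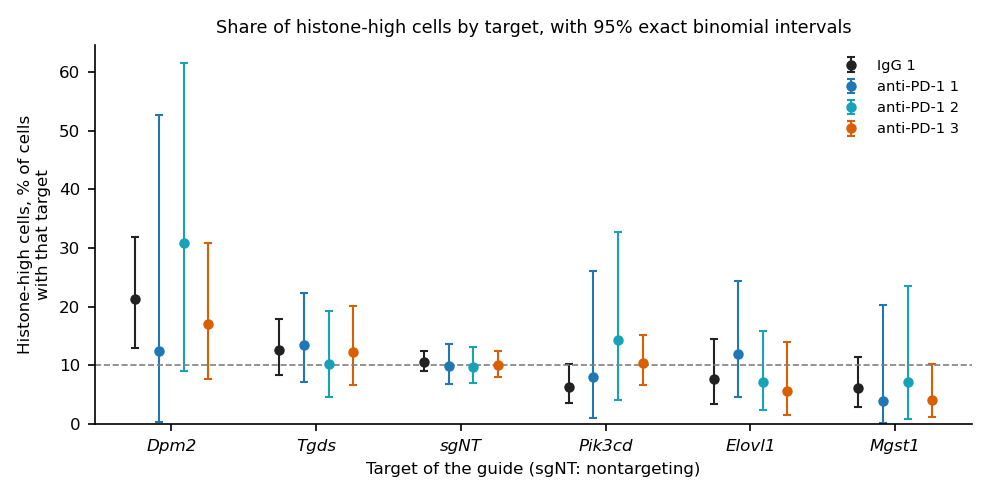
Percent of cells that were histone-high for 6 targets, 1 point per library with its exact 95% binomial interval, and a dashed line at the 10% that the rule sets. The Dpm2 points lie above the line in 4 of 4 libraries, with wide intervals in anti-PD-1 replicates 1 and 2, and the nontargeting points (sgNT) lie close to it.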

How the data were processed

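Single-cell CROP-seq data of 4 libraries (3′ gene expression and guide enrichment, Chromium) were used as deposited: UMI counts per gene and cell, not normalized, which the authors made with Cell Ranger 3.1.0 on mm10, together with deposited guide calls per cell, for which Cell Ranger set the guide UMI thresholds. R 3.6.3 and Seurat are named in the submitters' processing notes, and no value from them was used. Cells of the 4 libraries were grouped by the treatment in the labels. Nothing in the labels says which animals a library pooled, so p-values measure the spread between libraries. Anti-PD-1 replicates 1 and 2 share a title code, and whether they came from the same pool of cells is not stated. The fits counted them as separate libraries. The members and gene lists were chosen with earlier results of these data known.

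From the counts, cells with 1 guide call and at most 10% mitochondrial UMIs were kept, ranked by the 6-histone share within each library, and summed per library into members (top 10%) and other cells. Sums were tested with edgeR 4.0.16 (limma 3.58.1, R 4.3.3): TMM scaling, filterByExpr, quasi-likelihood test, library as block, Benjamini-Hochberg adjustment and a threshold of 0.05. The library block pairs members and other cells of the same library, as the sums come from the same pool of cells. The rule histones were left out of tables and library sizes. In the comparisons with G2/M-high and licensing-high cells the list that chose the other cells was left out too. In the treatment fit and the interaction fit, spread between libraries came from the 3 anti-PD-1 libraries, as IgG had only 1. The other fits took it from all libraries. Targets with at least 5 cells in each library were tested on cell numbers without TMM. Cell values were compared by exact permutation tests (Python 3.11.15, scipy 1.17.1). Standard errors were derived from the log2 difference and the F statistic. Intervals are exact binomial (Clopper-Pearson, 95%) and cover counting error only. The edgeR test of members against other cells was checked on simulated data, and the other count tests were not. No doublet caller was run, but cells with more than 1 guide were left out, and limits of 3 median absolute deviations on UMIs were an alternative.

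Named genes were the 12 largest log2 rises and falls among genes called with a mean log2 CPM of at least 5 and 1 direction in 4 of 4 libraries, outside the replication histones and unnamed gene models, then up to 5 called genes of each list with the largest change, the rule histones, the markers and Elovl1. For targets they were the 3 with the smallest p in each direction, nontargeting guides, Elovl1, Pik3cd and Dhodh. Some genes that the rule selects are not reported here. Genes that were neither were named to list a count or a list's members after their values were seen. Alternatives were the top 5% or 20% of cells, thinning to 2000 UMIs, linker histones alone, no low-count filter, DESeq2 1.42.0, no block, nontargeting guides alone, other guide limits, and leaving out each library. A batch term for the pairs of libraries, the fits that keep all histone-high cells and the choice of members on thinned cells for UMIs per cell were added after seeing the data. Sequences were read from GENCODE M21, the RefSeq tables (GRCm38.p6) and the guide reference. All 6 rule genes matched a promoter there.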

Additional observations from a re-analysis of the deposited data

Results flagged for a closer look

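Barcodes outside the comparisons also held cells at or above the lowest histone share of their library's histone-high cells, which is a signal in data that the comparisons did not use. Only barcodes with at most 10% mitochondrial UMIs were counted, which left 7356 of 9239, 5770 of 6541, 6207 of 6887 and 4578 of 5780 barcodes with no guide call and 2125 of 2136, 425 of 431, 323 of 324 and 1210 of 1216 with more than 1 guide. Among those with no guide call, the share was 6.74% of 7356 in the IgG library and 11.0% of 5770, 12.1% of 6207 and 5.99% of 4578 in anti-PD-1 replicates 1, 2 and 3. Among those with more than 1 guide it was 9.04% of 2125, 8% of 425, 8.36% of 323 and 12.7% of 1210 in the same order. Median depth was 4172.5, 13281.5, 13008 and 7630 UMIs without a guide call and 10594, 22024, 21501 and 20789.5 UMIs with more than 1 guide. The share without a guide call was above 10% in anti-PD-1 replicates 1 and 2 and below it in the other 2 libraries, the pairs that also differ in their histone mix. The part of depth in these shares was not tested.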

How the results depend on the processing

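Without the replicate block that pairs the cells of a library, 2228 genes were called against other cells, 1035 against G2/M-high cells, 1501 against licensing-high cells and 0 targets. Nontargeting cells alone gave 1826 against other cells. DESeq2 gave 1155 against G2/M-high and 1760 against licensing-high cells. Leaving out each library gave 3661 to 4554, 1662 to 2750 (1662 without IgG) and 2790 to 3335 genes in the 3 comparisons. Of the 4986 genes called against other cells, 4393 were called in the same direction on thinned cells, 4332 with linker histones alone, 3697 with the top 5% and 3774 in DESeq2.

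For treatment in histone-high cells the counts were 1 without the low-count filter, 2 in DESeq2, 122 with the batch term (67 higher, 55 lower) and 0 to 1208 leaving out a library. For the interaction they were 14 without the filter, 4 with the top 5%, and 1 to 87. Targets called were 0 with the top 5%, thinned cells, at least 5 guide UMIs, single guides, anti-PD-1 libraries alone and DESeq2, and 0 to 2 leaving out a library.

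Directions turned for few named items. Igkc had a log2 difference of 2.98 with the top 20%, 1.91 with nontargeting guides, 0.17 without cells of other types and -3.80 to 0.14 leaving out a library (0.14 without anti-PD-1 replicate 3). Jchain had 0.15 in DESeq2 and Krt8 0.18 without cells of other types. Il2 against licensing-high cells had -0.043 with the top 5%. With all histone-high cells kept, H2afv had 0.042 and Ccl3 -0.051 against G2/M-high cells. The effector median against G2/M-high cells was -0.14 with the top 5% and -0.12 to 0.25 leaving out a library (-0.12 without anti-PD-1 replicate 3), and against licensing-high cells -0.20 with the top 5%. The median of other cell types against licensing-high cells was 0.20 with the top 5% and -0.14 to 0.10 leaving out a library (0.10 without anti-PD-1 replicate 2). Cops8 had -0.63 at 5 guide UMIs. Nontargeting guides had -0.054 with the top 5%, -0.16 at 5 guide UMIs and -0.0049 to 0.059 leaving out a library (-0.0049 without IgG). Pik3cd had 0.067 at 5 guide UMIs and -0.51 to 0.082 leaving out a library (0.082 without IgG). The causes were not tested. Of the named results 3393 settings kept direction and side of the threshold, 194 lost the call, 22 turned direction as given above, and 1 gained the call (Elovl1, -0.17 without the filter). In a further 73 settings the median of a gene list moved by more than its spread between libraries. A further 26 settings, those given above, moved a count of called genes or targets by over 1.5 times.

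Cells per target set the depth of the guide results, with 8 to 80 cells of Dpm2 per library.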

Other observations

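Of 18 precursor and memory genes, 9 were lower and 3 (S1pr1, Klf2 and Lef1) higher in histone-high cells than in all other cells together, beside 20% of all genes lower and 19.8% higher. Against licensing-high cells 9 of the 17 tested were higher and none was lower (median log2 difference 0.29, and 0.23 with all histone-high cells kept), beside 19.0% of all genes higher and 17.2% lower. Tcf7, the transcription factor of stem-like CD8+ T cells, was among the genes lower than in all other cells together. In histone-high cells that were not licensing-high, Tcf7 was at 15.6, 9.93, 15.0 and 7.16 CPM in IgG and anti-PD-1 replicates 1, 2 and 3. In licensing-high cells it was at 10.4, 4.90, 4.23 and 3.26 CPM (log2 1.06 ± 0.17, edgeR adjusted p = 5.0e-05). It was higher in 4 of 4 libraries with overlapping groups. Lef1 and Id3, also of that programme, were 1.35-fold and 1.97-fold higher. Against G2/M-high cells 1 of 17 was higher and 2 lower, shares below those of all genes (14.7% higher and 12.2% lower).

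The T cell receptor constant gene Trac varied more between libraries than between cell classes, from 634 to 1957 CPM in histone-high cells and from 707 to 1913 CPM in the others. Mir155hg, the host transcript of miR-155, was at 16.9, 58.2, 56.4 and 21.2 CPM in histone-high cells and at 30.2, 118, 109 and 35.9 CPM in the others, lower in 4 of 4 libraries while the levels followed the library pairs.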
